A study of Mus musculus with 12 samples.

Results

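The transcription factor genes Runx1, Runx2 and Runx3, the corepressor gene Runx1t1 and the partner subunit gene Cbfb were followed by symbol through the developing mouse cochlea, as 5 of the 24489 genes of a single-cell count table. Cells carrying the red reporter tdTomato had been sorted from dissected cochleae and sequenced 1 per well with Smart-seq2, a full-length method without molecular identifiers, so that a count is a read and not a molecule. The 12 plates of 384 wells covered 6 stages, with 2 plates at E14.5, 2 at E15.5, 3 at E16.5, 1 at E17.5, 2 at E18.5 and 2 at P3. Of 4608 wells, 4226 passed the study's limits of over 1000 detected genes and under 5% spike-in reads.

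The plate was the replicate, and each plate held cells pooled from several animals, so that p-values measure the spread between plates. Labels gave PVcre;Ai14 for 11 of the plates, meaning Cre from the parvalbumin gene and a Cre-dependent tdTomato at the Rosa26 locus. Replicate 2 of E14.5 was labelled TrkCcre, Cre from the gene of the neurotrophin-3 receptor, while the study's methods name that driver for E14.5 as a whole, so the E14.5 group mixed drivers by its labels. No plate carried a mutation of a member or a treatment, and the reporter marks any cell that has had Cre activity at some time, not neurons alone.

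RUNX proteins bind DNA through their Runt domain, and CBFβ, the product of Cbfb, binds no DNA itself but joins each of them and stabilizes the complex. The complex activates or represses depending on its cofactors, among them Groucho/TLE corepressors that dock on the carboxyl end of RUNX proteins, acetyltransferases and the ETO family, to which the product of Runx1t1 belongs. In dorsal root ganglia RUNX1 is known for shaping nociceptors and RUNX3 for shaping proprioceptors, and RUNX2 is the master regulator of bone formation. In the cochlea the spiral ganglion neurons (SGNs) comprise type I neurons of classes Ia, Ib and Ic, which contact inner hair cells, and type II neurons, which contact outer hair cells.

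A stretch from 1 promoter window of each RUNX gene is shown because these windows share a sequence that RUNX proteins themselves read. The RUNX motif TGTGGT, or ACCACA on the other strand, was searched on both strands of RefSeq windows of 300 bases (250 before to 50 after a gene start, assembly GRCm38.p6), where 16.8% of 32851 windows held it. The 4 genes that matched had 6 windows, and 3 of these held the motif, 1 each of Runx1, Runx2 and Runx3. The other window of Runx1 (chr16:92697280-92697579), the other of Runx3 (chr4:135152295-135152594) and that of Cbfb held no copy. A tandem of 2 copies of ACCACA with GA between them was found in 4 windows, 0.0122% of all, and these belonged to Runx1, Runx2, Runx3 and the predicted gene Gm16225. In the lines that follow, read on the strand of each gene, capitals mark the motif copies. In Runx3 the tandem lay 134 bases before the start (chr4:135120503-135120532, plus strand), in Runx1 28 bases after it (chr16:92826025-92826054, minus strand) and in Runx2 23 bases after it (chr17:44814583-44814612, minus strand).
Runx1: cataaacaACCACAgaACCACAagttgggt
Runx2: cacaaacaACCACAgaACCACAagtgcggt
Runx3: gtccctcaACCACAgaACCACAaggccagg
The 3 sites shared a core of 18 bases around the tandem. A match of letters is not a bound site, and no binding was measured here.

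Cells were clustered within each stage, E17.5 together with E18.5, without the members or the listed cofactor and target genes, and clusters were named from markers. SGN-like cells made up 2205 of the kept cells (52.18%), glia-like cells 1355, otic mesenchyme (OM)-like cells 498 and hair cell (HC)-like cells 74, and 94 cells at E14.5 stayed unnamed. The HC-like class was not divided into cochlear and vestibular hair cells, though the study found both and set the vestibular ones aside. Within the SGN-like cells, 690 were Ic-like, 457 Ia-like, 228 Ib-like, 110 II-like, 363 in an intermediate called Ia/Ib/II-like and 240 unspecialized, while 117 had no class. All 8 SGN markers were read in the SGN-like cells of every plate, at 10595 to 13370 CPM (counts scaled to a common library total) in sum. The OM-like cells of E16.5 replicates 1 and 2, only 8 and 10 cells, went against their name, with 3818 and 7317 CPM of SGN markers and 770 and 2289 CPM of OM markers. Hair cell markers on these 2 plates came to 193 CPM at the lower and 4053 CPM at the higher. Depth ranged from 80997594 to 303906928 counts per plate. Plates came in 4 named series that follow age at E18.5 and P3, with a median of 4691 to 4983 genes per cell in the 6 plates of series SS2_20 and of 8426 to 9629.5 in the others. SGN-like cells held 26.8 to 174 CPM of glial markers in series SS2_20, 636 to 690 in SS2_18, 2726 to 2915 in SS2_19 and 2728 to 3073 in SS2_15, and the part of these reads in the stage results was not tested.

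Among the named classes Runx1 (chr16:92601466-92826149, minus strand, GRCm38) had its highest levels in neurons. Its level in the summed SGN-like cells stood higher at later stages. In the summed SGN-like cells of each plate it reached 104 and 115 CPM at E14.5, 185 and 154 at E15.5, and 164, 161 and 178 at E16.5. It stood at 209.6 CPM at E17.5, at 225 and 223 at E18.5 and at 235 and 251 at P3. The E14.5 plates were the lowest and the P3 plates the highest, and neither overlapped with another stage. All CPM here are scaled by edgeR's TMM factors, which level the composition of libraries. The rise from E14.5 to E16.5 was 1.43-fold (log2 0.52 ± 0.12 SE, adjusted p = 0.0203 by edgeR's quasi-likelihood test). In that comparison 12.7% of 16829 genes passed the threshold of 0.05, and Runx1 and Runx1t1 did among the members. From E16.5 to E17.5/E18.5, where 0.493% of genes passed, and from there to P3, where 29.8% did, no member passed, and Runx1 differed by log2 0.34 (adjusted p = 0.211) and 0.11 (adjusted p = 0.560).

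The E14.5 value of Runx1 depended on which neurons were summed. With a subset of cells left out, most of them at E14.5 and chosen after their levels were seen, the difference of Runx1 between E16.5 and E14.5 was log2 0.24 (adjusted p = 0.219 by edgeR), past no threshold. The call was also lost without E14.5 replicate 1 (adjusted p = 0.101) and within series SS2_20 alone (log2 0.69, adjusted p = 0.122).

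**Figure D1:**
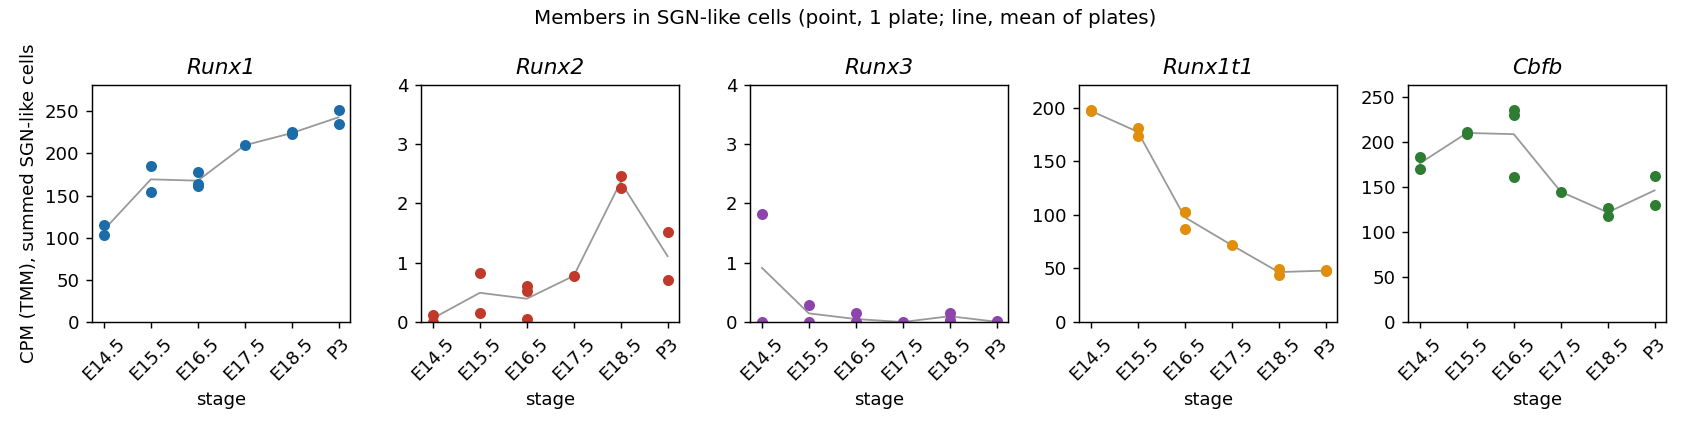
Level of each member in the summed SGN-like cells (y axis, TMM-scaled CPM, each panel with its own scale) by stage (x axis), with 1 point per plate and a line through the means of the plates. Runx1 goes from 104 and 115 CPM at E14.5 to 235 and 251 at P3 and Runx1t1 from 198 and 197 to 48.2 and 47.7, while Runx2 and Runx3 stay under 3 CPM.

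A larger early difference of Runx1 lay in the unspecialized neurons. Their 2 plates at E14.5 held 33.4 and 45.2 CPM, against 142.7 and 152 at E15.5 and 115, 136 and 129 at E16.5. Every plate of the later stages stood above both plates of E14.5. In a comparison added after these values were seen, Runx1 rose 3.79-fold to E15.5 (log2 1.92 ± 0.23, adjusted p = 0.00174 by edgeR), where 4.63% of 13501 genes passed, and Runx1 alone of the members. Against E14.5 the E16.5 level was 3.24-fold higher (log2 1.70 ± 0.22, adjusted p = 0.00129), where 8.53% of genes passed, and Runx1 and Runx1t1 of the members. Runx1 stayed past the threshold in 15 of 15 alternatives of either comparison, with log2 1.71 to 2.51 and 1.49 to 2.36. Without the same subset of cells the differences were log2 2.504 and 2.27. The share of unspecialized cells with a Runx1 read, after each cell was thinned to 100000 reads, was 22.5% and 35.7% on the E14.5 plates, 81.5% and 88.2% at E15.5, and 91.5%, 85.4% and 90.0% at E16.5. A cluster of 61 SGN-like cells at E14.5 that carried no class name held more, 206 and 176 CPM before TMM scaling.

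Among the specialized neurons Runx1 was high in the Ic-like and Ib-like classes and low in the II-like class and, at P3, in the Ia-like class. Ic-like cells held 245 and 203 CPM at E15.5, 236, 250.3 and 315 at E16.5, 403 at E17.5, 369.9 and 344 at E18.5, and 285 and 267 at P3. Ia/Ib/II-like cells held 92.4, 81.6 and 66.8 CPM at E16.5, so the classes did not overlap on any of the 3 plates. At that stage Runx1 was 3.33-fold higher in Ic-like cells (log2 1.73 ± 0.17, adjusted p = 0.00386 by edgeR), the only member among the 1.53% of 14556 genes that passed. Without E16.5 replicate 2 the adjusted p was 0.119 with a log2 difference of 1.79.

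From E17.5 to P3, Ib-like cells held 401 and 403 CPM of Runx1 at E18.5 and 325 and 271 at P3. II-like cells held 20.3 and 2.57 CPM at E18.5 and 12.3 and 15.7 at P3, below every Ib-like and Ic-like value. At P3 the Ia-like cells, a type I class, stood lower than the II-like cells, at 0.871 to 6.32 CPM. Against the mean of the 3 type I classes, II-like cells were 11.2-fold lower (log2 -3.49 ± 0.76, adjusted p = 0.00787 by edgeR), and 3 members were among the 8.39% of 15250 genes that passed. That call was lost without E18.5 replicate 1 (adjusted p = 0.101) or replicate 2 (0.0774). Ic-like cells exceeded Ia-like cells 8.56-fold (log2 3.10 ± 0.78, adjusted p = 0.0351), where 3.47% of genes passed. With the plate as a block, which pairs classes of the same pooled animals, the same difference was 3.12 with an adjusted p of 0.0691, and leaving out any 1 of the 4 plates of E18.5 and P3 ended the call (adjusted p = 0.0543 to 0.268). Ib-like cells stood 9.64-fold above Ia-like cells without passing (adjusted p = 0.0769, with 0.852% of genes called and no member). Each of these folds includes the Ia-like sums and comes from 1 class difference fitted to both stages. Mean Runx1 in Ia-like cells was 96.5 CPM at E18.5 and 3.59 at P3, against 357 and 276 in Ic-like cells. The folds therefore describe neither stage alone. Between Ic-like and Ib-like cells, where 0.216% of genes passed and no member, the Runx1 difference was log2 -0.17 ± 0.68 (adjusted p = 0.984).

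**Figure D2:**
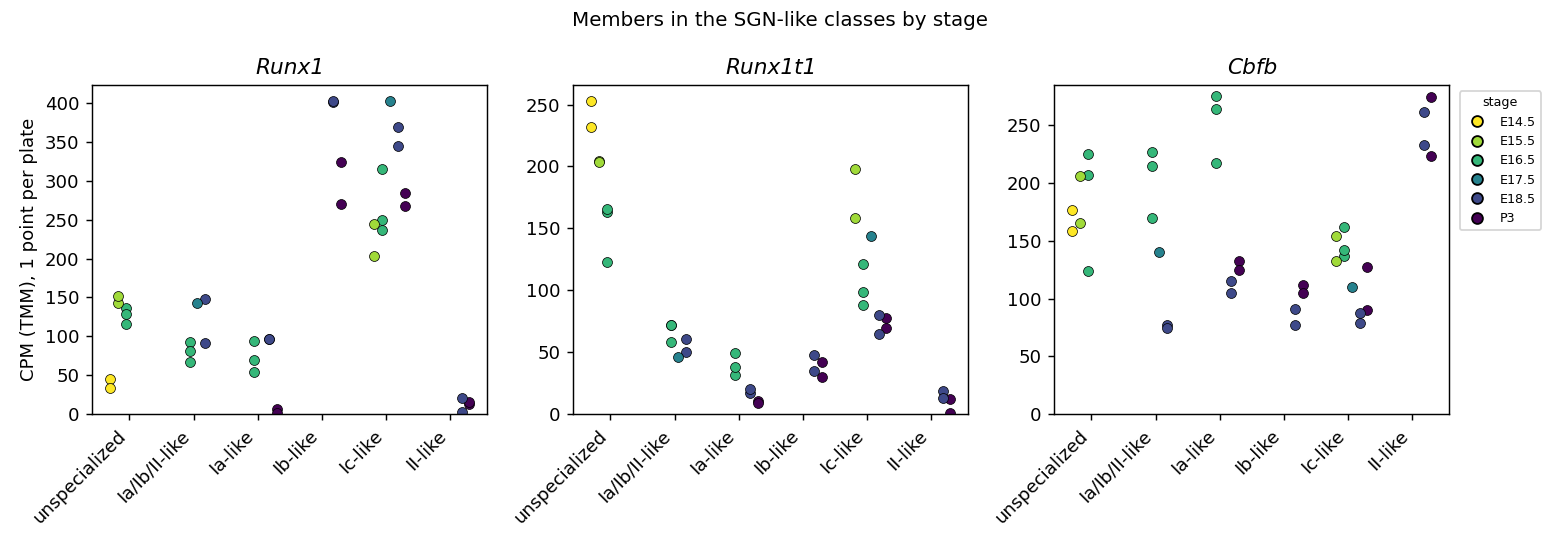
Runx1, Runx1t1 and Cbfb (y axes, TMM-scaled CPM, a scale for each panel) in 6 classes of SGN-like cells (x axis), with 1 point per plate coloured by stage. Ia-like Runx1 falls from 96.3 and 96.7 CPM at E18.5 to 6.32 and 0.871 at P3, Ib-like and Ic-like Runx1 stays above 200 CPM, and II-like Cbfb lies between 223 and 275 CPM.

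The Ia-like class held Runx1 before birth and little of it at P3. It stood at 69.7, 54.7 and 93.5 CPM at E16.5 and at 96.3 and 96.7 at E18.5, against 6.32 and 0.871 at P3. The P3 plates lay below all 5 earlier plates. In a comparison added after these values were seen, Runx1 fell 24.3-fold from E18.5 to P3 (log2 -4.60 ± 0.62, adjusted p = 9.4e-05 by edgeR), the only member called, with 28% of 15980 genes past the threshold. In Ic-like cells, where 26.5% of genes passed and no member, the difference was log2 -0.44 ± 0.51 (adjusted p = 0.579). The difference between these stage effects was itself -4.16 ± 0.78 (adjusted p = 0.0327), with 0.394% of genes passing. It was lost without E18.5 replicate 1 or replicate 2 (adjusted p = 0.343 and 0.434), and the fall within Ia-like cells kept its call without any 1 of the 4 plates (adjusted p up to 0.00184).

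Single cells showed the same for Ia-like neurons. Thinned to 100000 reads, 92 of 108 and 100 of 120 Ia-like cells had a Runx1 read at E18.5 (85.2% and 83.3%), against 14 of 73 and 1 of 15 at P3 (19.2% and 6.67%). The cells that had a read also held less, with medians of 92.2 and 94.96 CPM at E18.5 and of 7.99 and 1.80 at P3. Both Ia-like clusters of E17.5/E18.5, of 181 and 52 cells with 3 from E17.5, held Runx1 at 98.2 and 93.1 CPM. Stage and plate series cannot be told apart here, since E18.5 was SS2_19 and P3 was SS2_15. The SGN classes were also named within each stage. Ia-like cells were 230 of 571 SGN-like cells at E18.5 and 89 of 501 at P3, and Ib-like cells 47 and 181. The study reported a transient Ia/Ib population, with Runx1 among its factors, that could still be seen at E18.5. No class here stood for that population, so Ia-like cells before birth may include it. Whether the Ia-like name covers the same neurons at both stages was not tested.

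Glia-like, OM-like and HC-like cells held less Runx1 than neurons. The 94 unnamed cells of E14.5, with cartilage and OM markers, entered no comparison and held 157.6 and 158.1 CPM before TMM scaling. SGN-like cells of those plates held 104 and 115 TMM-scaled CPM. Glia-like cells held 10.4 and 19.1 CPM at E14.5, 13.4 and 12.7 at E15.5, 62.8, 54.1 and 16.4 at E16.5, 15.01 at E17.5, and 109 and 102 at E18.5. The 4 high plates were those of series SS2_18 and SS2_19, whose glia-like cells also held 5837 to 7231 CPM of SGN markers against 106 to 157 in series SS2_20, and the part of those reads was not tested. On those 4 plates these SGN markers go against the glia-like name. The study described clusters with both neuronal and glial markers as mirrors of neuronal clusters with glial contamination, greatest at E18.5. OM-like cells held 29.99 and 26.5 CPM at E14.5, 27.5 and 16.0 at E15.5, 42.9, 80.7 and 60.1 at E16.5 and 65.4 at E17.5. Over the stages with all 3 classes, Runx1 was 6.90-fold lower in glia-like cells (log2 -2.79 ± 0.32, adjusted p = 9.05e-07 by edgeR) and 3.96-fold lower in OM-like cells (log2 -1.99 ± 0.30, adjusted p = 2.15e-05) than in SGN-like cells. These comparisons called 54.1% and 53.9% of 14738 genes, and 4 and 3 members. Within series SS2_20 alone the differences were log2 -3.39 and -2.14. OM-like and glia-like cells differed by log2 0.80 (adjusted p = 0.0637), where 19.3% of genes passed, Runx2 and Runx1t1 among them, and within series SS2_20 Runx1 passed as well (1.25, adjusted p = 0.00141).

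**Figure D3:**
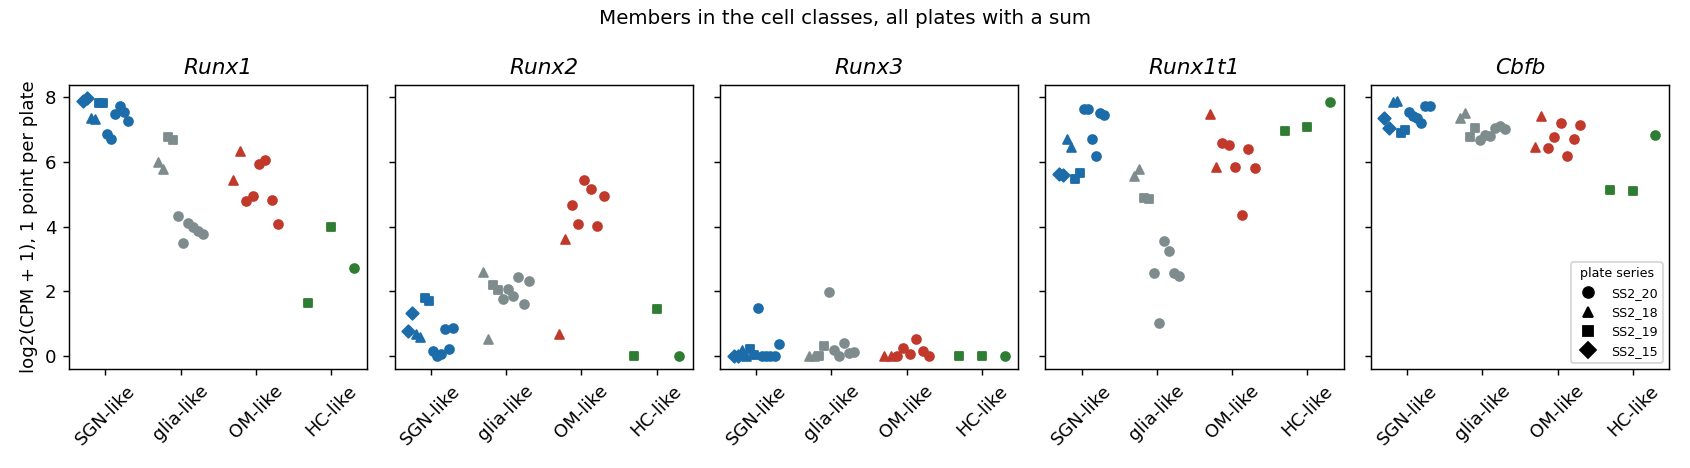
Level of each member as log2(CPM + 1) (y axis) in the 4 broad cell classes (x axis), with 1 point per plate that had enough cells and the marker shape giving the plate series. Runx1 is highest in SGN-like cells (104 to 251 CPM), Runx2 in OM-like cells (0.596 to 42.0 CPM), Runx3 is near 0 throughout, and the glia-like points of Runx1 and Runx1t1 split by series.

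Runx2 was highest in the mesenchyme. OM-like cells held 15.8 and 24.4 CPM at E14.5, 15.1 and 29.9 at E15.5, 0.596, 11.3 and 42.0 at E16.5, and 34.7 at E17.5. The 0.596 came from the 8 cells that also carried SGN markers, and without the plates of series SS2_18 the lowest OM-like value was 15.1 CPM. Glia-like cells lay between 0.451 and 5.12 CPM and SGN-like cells between 0 and 2.46, so that outside those 8 cells OM-like plates overlapped with neither. Runx2 was 61.4-fold higher in OM-like than in SGN-like cells (log2 5.94 ± 0.79, adjusted p = 4.86e-06 by edgeR), 7.03-fold higher than in glia-like cells (log2 2.81 ± 0.67, adjusted p = 0.00544), and 8.73-fold higher in glia-like than in SGN-like cells (log2 3.13 ± 0.70, adjusted p = 0.000907). All 3 calls held in 19 of 19 alternatives each. Only 22.9% of thinned OM-like cells had a read (110 of 480, 95% Wilson interval 19.4% to 26.9%), against 7.21% of glia-like and 4.35% of SGN-like cells, and these intervals cover counting error only. No stage comparison called Runx2.

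Clusters of mesenchyme differed in Runx2. At E14.5 the 4 OM-like clusters held 7.74, 15.1, 28.9 and 34.1 CPM before TMM scaling, and the cluster with 34.1 CPM also had the most Runx1 of the 4, 69.0 CPM. At E15.5, E16.5 and E17.5/E18.5 the single OM-like cluster of each stage held 24.1, 34.4 and 34.2 CPM. In the OM-like cells of series SS2_20, markers of cartilage came to 2489 to 17108 CPM and those of bone to 4.73 to 44.0 CPM.

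Of 17 genes tied to RUNX2 in the skeleton, 10 passed the low-count filter, and against SGN-like cells 6 were higher and 1 lower in OM-like cells, where 53.9% of all genes were called, with a list median of log2 3.70 beside -0.01 over all genes. A gene could pass that filter through OM-like or glia-like sums alone, and 7 of the 17 entered the fit of late neuron classes. The counts and medians against neurons are therefore a description and no test of the list. Col1a1, the main collagen of bone and dermis, was higher by log2 8.00 ± 1.28, Twist2, which restrains osteoblast maturation, by 7.09 ± 1.29, and the vitamin D receptor gene Vdr by 5.08 ± 1.32. Spp1, which encodes osteopontin, was lower (log2 -5.43 ± 1.17), and it rose in SGN-like cells at E17.5/E18.5 (0.92 ± 0.11) and again at P3 (1.08 ± 0.12), the only listed skeletal gene called at either step (medians 0.58 beside 0.00 and -0.11 beside -0.08). Glia-like cells also had 6 higher and 1 lower than neurons, where 54.1% of all genes were called (median 3.38 beside 0.01), led by Vdr, Dlx5 and Msx2. Against glia-like cells, OM-like cells had Twist2 and Col1a1 higher (log2 6.998 and 5.31) and Dlx5 lower (-4.15), with a list median of -0.48 beside -0.04. None of the list was called between E14.5 and E16.5 in SGN-like cells (median 0.55 beside 0.07), glia-like cells (0.00) or OM-like cells (-1.56 beside 0.00), nor in any comparison between classes of neurons, where medians ran from 0.05 to 0.56. HC-like cells had 1 higher (Col1a1, 2.98) and 1 lower (Spp1, -3.20), with a median of -0.32 beside -0.06. Over all genes, 56.9% were called there and 19.3% between OM-like and glia-like cells. From E14.5 to E16.5 the shares were 12.7% in SGN-like, 0.252% in glia-like and 0.289% in OM-like cells. For SGN-like cells they were 0.493% at E17.5/E18.5 and 29.8% at P3, and between neuron classes 0.216% to 8.39%.

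Runx3 was almost absent. The whole table held 257 reads of it in 35 of the 4226 cells, 26 of them above 10 CPM. The 3 largest counts, 82, 50 and 25 reads, came from a glia-like, an unnamed and an unspecialized cell, all of E14.5 replicate 2. SGN-like cells held 1.83 CPM on that plate and 0 to 0.293 CPM on the other 11. After thinning, 0.231% of SGN-like, 0.475% of glia-like and 0.625% of OM-like cells had a read, and 0 of 74 HC-like cells did, which a Wilson interval bounds at 4.94%. Runx3 fell below the low-count filter in all comparisons between classes, and without that filter its adjusted p was 0.342 to 1.

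**Figure D4:**
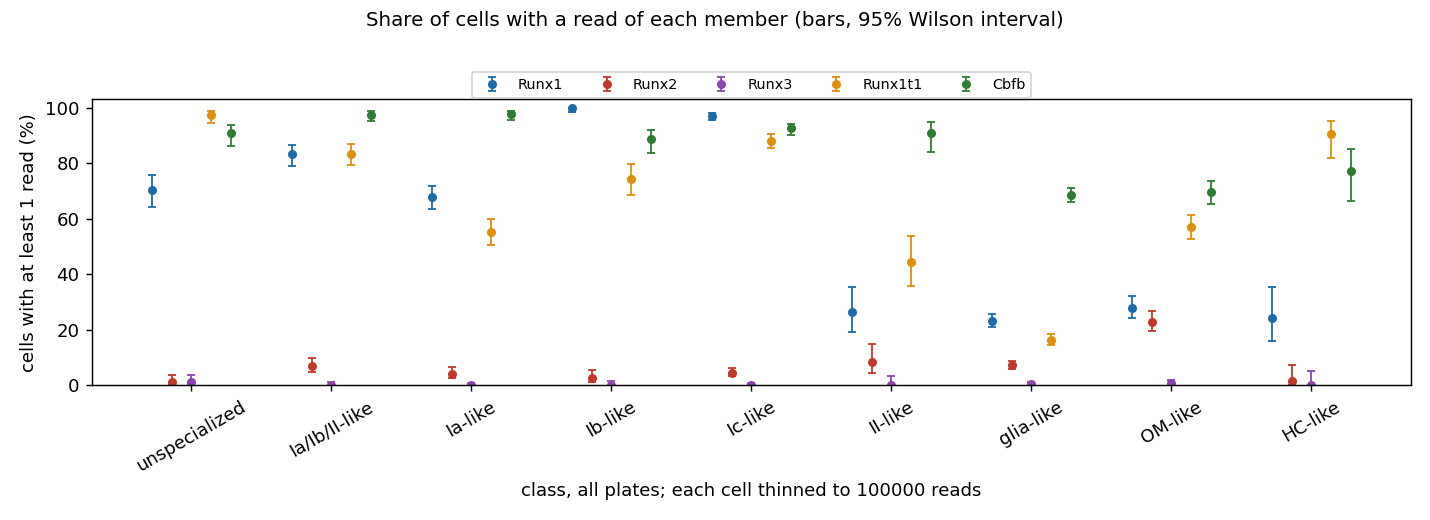
Share of cells with at least 1 read of each member (y axis, %) in each class (x axis), with every cell thinned to 100000 reads and bars for 95% Wilson intervals. Runx1 is read in 100% of Ib-like and 97.0% of Ic-like cells but in 26.4% of II-like cells, and Runx2 peaks in OM-like cells at 22.9%.

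Runx1t1, whose product works with histone deacetylases as a corepressor, ran opposite to Runx1 with age in the summed SGN-like cells. SGN-like cells held 198 and 197 CPM at E14.5, 181 and 174 at E15.5, and 103.02, 87.1 and 103.1 at E16.5. They held 71.7 CPM at E17.5, 43.6 and 49.6 at E18.5, and 48.2 and 47.7 at P3. No plate of E16.5 or later reached the level of E14.5 or E15.5, whereas E18.5 and P3 overlapped. The gene fell 2.16-fold from E14.5 to E16.5 (log2 -1.11 ± 0.21, adjusted p = 0.00627 by edgeR), also without that subset of cells (-1.08, adjusted p = 0.0113) and within series SS2_20 (-0.96, adjusted p = 0.0327). The difference from E16.5 to E17.5/E18.5 missed the threshold (log2 -0.87 ± 0.19, adjusted p = 0.0807) and passed it without E17.5 replicate 1 (-1.13, adjusted p = 0.00183).

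In unspecialized neurons Runx1t1 stood at 232 and 253 CPM at E14.5, 204 on both plates at E15.5, and 164, 165 and 122 at E16.5. The stages did not overlap, and the fall to E16.5 of log2 -0.68 ± 0.17 only just passed (adjusted p = 0.0412), which 7 of 15 alternatives kept. Ic-like cells held 198 and 158 CPM at E15.5, 98.4, 88.4 and 121 at E16.5, 144.1 at E17.5, 64.3 and 79.7 at E18.5, and 77.5 and 69.2 at P3. Ia-like cells held less on every shared plate, with 49.0, 31.4 and 37.8 CPM at E16.5, 16.9 and 20.0 at E18.5, and 10.9 and 8.64 at P3. From E17.5 to P3 the Ic-like level was 6.12-fold higher than the Ia-like (log2 2.61 ± 0.49, adjusted p = 0.00475 by edgeR), a call lost without P3 replicate 1, E18.5 replicate 1 or E18.5 replicate 2 (adjusted p = 0.0531 to 0.0648). Ib-like cells lay between, at 47.8 and 34.7 CPM at E18.5 and 42.0 and 29.6 at P3, and differed from neither Ia-like (adjusted p = 0.234) nor Ic-like cells (0.622) past the threshold. II-like cells held 18.97 and 12.6 CPM at E18.5 and 12.3 and 0.414 at P3, 3.36-fold below type I (log2 -1.75 ± 0.44, adjusted p = 0.0193), a call lost without P3 replicate 1 or either plate of E18.5 (adjusted p = 0.0586 to 0.142).

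Runx1t1 was low in glia-like cells and high in HC-like cells, in which cochlear and vestibular hair cells were not told apart. Glia-like cells held 1.05 to 10.9 CPM on the 6 plates of series SS2_20 and 27.8 to 53.6 on the 4 others, whose SGN marker reads are given above. They were 10.6-fold below SGN-like cells (log2 -3.41 ± 0.65, adjusted p = 0.00019 by edgeR), and by log2 -4.60 within series SS2_20. OM-like cells held 19.7 to 178 CPM, where the 178 came from the 8 cells that also carried SGN markers and the next highest plate held 95.5. The OM-like sums of series SS2_18 also held hair cell markers, at 193 to 4053 CPM, and the part of those reads was not tested. They differed from SGN-like cells by log2 -0.97 ± 0.55 (adjusted p = 0.147), and within series SS2_20 the difference passed (-1.21, adjusted p = 0.0321). They exceeded glia-like cells 5.45-fold (log2 2.45 ± 0.61, adjusted p = 0.00715). HC-like cells held 229 CPM at E17.5, from 5 cells, and 123 and 135 at E18.5, against 43.6 and 49.6 in neurons of the same E18.5 plates. At E18.5 they were 2.92-fold higher than SGN-like cells (log2 1.55 ± 0.13, adjusted p = 0.000492), where 56.9% of 16021 genes and 3 members passed.

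Between E14.5 and E16.5 no member was called in glia-like cells (0.252% of 18653 genes) or OM-like cells (0.289%), nor for a stage effect that differed from that of neurons (0.059% and 0.134%). The nearest was Runx1t1 in glia-like cells (log2 3.67 ± 0.75, adjusted p = 0.0542), which was 1.85 (adjusted p = 0.569) within series SS2_20. At an unadjusted p under 0.05 the glia-like comparison held 2653 genes, against 47 after adjustment. On simulated counts the glia-like fit called 1 of 100 genes changed 2-fold and 13 of 100 changed 4-fold. A lack of calls there therefore does not show that a level was stable.

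Cbfb, the shared partner, was read at 33.5 CPM or more in every class and plate. SGN-like cells held 169.9 and 184 CPM at E14.5, 209 and 212 at E15.5, 231, 236 and 161 at E16.5, 145 at E17.5, 118 and 126 at E18.5, and 163 and 130.4 at P3. Its difference from E16.5 to E17.5/E18.5 (log2 -0.72 ± 0.15, adjusted p = 0.0663 by edgeR) passed without E16.5 replicate 3 (adjusted p = 0.0435) or E17.5 replicate 1 (0.0113). Glia-like cells lay between 102 and 181 CPM and OM-like cells between 71.9 and 169.7. They were lower than neurons by log2 -0.48 ± 0.14 (adjusted p = 0.00653) and -0.74 ± 0.14 (adjusted p = 0.000192), the smallest called differences of any member there. HC-like cells held 112 CPM at E17.5 and only 34.3 and 33.5 at E18.5, 3.40-fold below neurons (log2 -1.77 ± 0.11, adjusted p = 0.000203).

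Among the neurons of E18.5 and P3, Cbfb was highest in the II-like class. II-like cells held 233 and 261 CPM at E18.5 and 223 and 275 at P3, while on those plates Ia-like cells held 105 to 132.9, Ib-like cells 77.0 to 112 and Ic-like cells 79.1 to 127. The II-like plates overlapped with no type I plate, and the difference of 2.42-fold (log2 1.27 ± 0.10, adjusted p = 9.08e-07 by edgeR) was the clearest call of any member between neuron classes, kept without any 1 plate. Runx1 in the same II-like cells was 20.3 CPM at most. At E16.5 the order among classes was another, with 264, 275 and 217 CPM in Ia-like, 227, 214 and 169.5 in Ia/Ib/II-like and 137, 162 and 142 in Ic-like cells, and the difference of Ic-like from Ia/Ib/II-like cells did not pass (log2 -0.47, adjusted p = 0.221).

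Runx1 was scarce in the undivided HC-like class too. HC-like cells held 5.65 CPM at E17.5 and 2.14 and 14.8 at E18.5, 24.8-fold below the neurons (log2 -4.63 ± 0.75, adjusted p = 0.00478), and 24.3% of thinned cells had a read (Wilson interval 16.0% to 35.2%), close to the 23.1% of glia-like cells (20.9% to 25.5%). Runx2 was read at 0 CPM on 2 of the 3 HC-like plates and at 1.76 on the other. Leaving out a plate there would leave no residual freedom for a test.

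Set per kilobase of exon, so that genes can be compared, Cbfb was the highest member in SGN-like cells at every stage, at 50.8 CPM per kb at E14.5, 60.1 at E16.5, 35.1 at E18.5 and 42.1 at P3. Runx1t1 was second at E14.5 (24.8 CPM per kb) above Runx1 (9.09), Runx1 led at E16.5 by 13.9 to 12.3, and at P3 the order was Runx1 at 20.2 and Runx1t1 at 6.03. Runx2 was at 0.126 CPM per kb and Runx3 at 0.000899 at P3. In OM-like cells of E14.5 the order was Cbfb (28.0), Runx1t1 (11.7), Runx1 (2.35) and Runx2 (2.28), and the last pair did not differ beyond the plates' spread. Coding and untranslated exons were merged for these lengths.

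Of 2161 thinned SGN-like cells, 66.3% had reads of both Runx1 and Runx1t1, where the product of their separate shares is 63.6%, and at P3 the values were 56.3% and 48.2%. Runx1 and Cbfb were read together in 76.7% of cells, beside a product of 76.3%. Both classes rich in Runx1 at P3 also had more Runx1t1 than the other classes of that stage. In the summed SGN-like cells the stage trends of these genes nevertheless ran in opposite directions. Over 59 class-by-plate sums, which share plates and differ in depth, Pearson's r was 0.45 between Runx1 and Runx1t1 and 0.07 between Runx1 and Cbfb on the log2 scale.

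Of 21 listed cofactors of RUNX proteins, all in the fit, 3 were called between Ic-like and Ia-like cells and 18 were not, where 3.47% of all genes were called, with a list median of log2 0.22 beside 0.00 over all genes. Tle2, a Groucho corepressor, was higher in Ic-like cells (log2 5.11 ± 0.97, adjusted p = 0.00524 by edgeR), and so was Aes, a short Groucho relative that lacks the WD repeats (1.19 ± 0.13, adjusted p = 5.3e-05). Tle4, another full-length Groucho gene, was lower (log2 -1.82 ± 0.13, adjusted p = 8.62e-07). At E16.5 the same 3 were called in the same directions between Ic-like and Ia/Ib/II-like cells, Tle2 at 48.9 to 70.6 against 0 to 2.64 CPM, Aes at 104 to 164 against 40.7 to 59.1, and Tle4 at 173 to 187.5 against 689.6 to 893. None of these ranges overlapped, and 1.53% of all genes were called in that comparison.

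**Figure D5:**
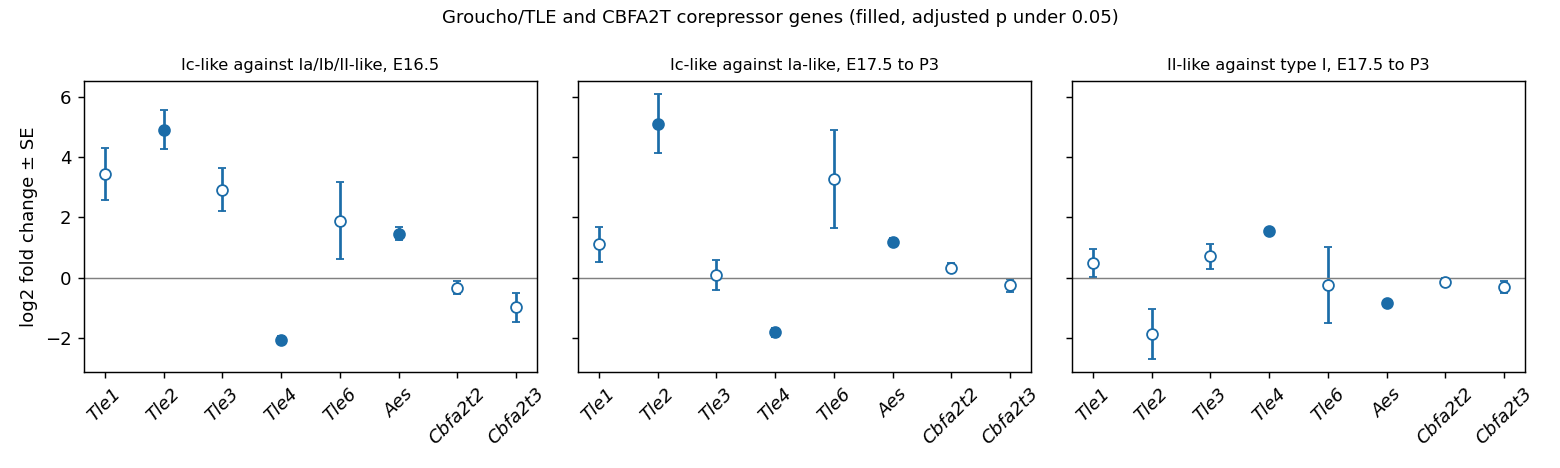
Log2 fold change (y axis, bars for SE) of the Groucho/TLE and CBFA2T genes among the listed cofactors (x axis) in 3 comparisons of SGN-like classes, filled where the adjusted p is under 0.05. Tle2 and Aes are higher and Tle4 lower in Ic-like cells at E16.5 (4.91, 1.46 and -2.07) and later (5.11, 1.19 and -1.82), and Tle4 is higher in II-like cells (1.55).

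Tle4 stood at 379 to 387 CPM in Ia-like and 484 to 499 in II-like cells at E18.5, against 101 to 115 in Ic-like cells, so that at this stage the classes with the least Runx1 held the most Tle4. Against the same Ia-like sums, Ib-like cells had Aes higher (0.86 ± 0.13, adjusted p = 0.00329) and Tle4 lower (-1.63 ± 0.14, adjusted p = 2.15e-05), and no other listed cofactor was called there (median 0.03 beside -0.01). Between Ic-like and Ib-like cells no cofactor was called (median 0.19 beside 0.02). II-like cells had Tle4 higher (1.55 ± 0.10) and Aes and the deacetylase gene Hdac2 lower (-0.84 and -0.49) than type I, with a median of -0.04 beside -0.01. Over all genes, 0.852% were called between Ib-like and Ia-like, 0.216% between Ic-like and Ib-like and 8.39% between II-like and type I cells.

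With age, few cofactors were called before P3. From E14.5 to E16.5, where 12.7% of all genes passed, 17 of the 21 did not pass, Tle4 rose (log2 1.69 ± 0.36, adjusted p = 0.0120 by edgeR) and 3 listed cofactors fell, among them Tle1 (-3.14) and Tle2 (-0.75), with a list median of -0.20 beside 0.07 over all genes. Tle1 went from 96.1 and 134 CPM on the E14.5 plates to 9.66 to 16.2 on those of E16.5. Only Prmt1, an arginine methyltransferase gene, passed at E17.5/E18.5, where 0.493% of all genes did (-0.58, adjusted p = 0.0375, list median -0.19 beside 0.00). At P3, where 29.8% of all genes passed, 3 rose, Aes (1.38), Hdac2 (0.43) and Hdac3 (0.39), and 8 fell, led by Ep300 (-1.87) and Crebbp (-1.44), acetyltransferase genes, and the histone methyltransferase gene Kmt2a (-1.72), with a median of -0.37 beside -0.08.

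Against neurons, OM-like cells had 10 cofactors higher and 4 lower (53.9% of all genes called, median 0.27 beside -0.01), and glia-like cells 6 and 3 (54.1%, median 0.22 beside 0.01), both set against the same SGN-like sums. Wwtr1 and Yap1, the coactivators of the Hippo pathway, led both, with log2 5.24 and 5.05 in OM-like and 5.79 and 4.93 in glia-like cells, and Tle6 followed (2.92 and 3.49). Tle4 was lower in both (-3.12 and -1.95), and Cbfa2t3, an ETO family relative of Runx1t1, was lower in glia-like cells (-3.37) and higher in OM-like than in glia-like cells (3.33 ± 0.72), where Aes was the other cofactor called (0.57, list median 0.12 beside -0.04). HC-like cells had 8 higher, led by Tle1 (2.17) and Tle3 (2.04), and 6 lower, led by Tle4 (-2.95), with a median of 0.07 beside -0.06. Over all genes, 56.9% were called there and 19.3% between OM-like and glia-like cells. No cofactor was called between E14.5 and E16.5 within glia-like or OM-like cells (medians -0.08 and -0.45 beside 0.00), where 0.252% and 0.289% of all genes were.

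A further list held 14 genes tied to RUNX1 or RUNX3 in somatosensory neurons of dorsal root ganglia. Of these, 11 entered the comparison of Ic-like with Ia-like cells and none was called there (median log2 -0.22 beside 0.00), nor between Ib-like and Ia-like (-0.03 beside -0.01) or Ic-like and Ib-like cells (0.17 beside 0.02). Over all genes 3.47%, 0.852% and 0.216% were called in these comparisons, so a count of 0 among 11 says nothing particular about the list. II-like cells, with little Runx1, had the calcitonin gene Calca higher (log2 6.27 ± 0.65, adjusted p = 1.16e-05 by edgeR) and the sodium channel gene Scn11a higher (2.85 ± 0.80, adjusted p = 0.0352), with a list median of 0.03 beside -0.01. Scn11a was also higher in Ic-like than in Ia/Ib/II-like cells at E16.5 (1.14 ± 0.20, adjusted p = 0.0362), the only one of the 8 in that comparison (median 0.21 beside 0.02). With age 3 fell in SGN-like cells from E14.5 to E16.5, among them the sodium channel gene Scn10a (-7.40) and the capsaicin receptor gene Trpv1 (-7.01), with a list median of 0.02 beside 0.07. Scn11a fell at E17.5/E18.5 (-1.98, list median -0.20 beside 0.00) and 5 genes fell at P3, among them Scn11a and the neurotrophin-3 receptor gene Ntrk3 (-3.36 and -1.67, list median -0.91 beside -0.08). Glia-like and OM-like cells each had Met, the hepatocyte growth factor receptor gene, higher than neurons (4.33 and 2.25), and 6 and 3 genes lower (medians -2.62 beside 0.01 and -1.41 beside -0.01). Of the 14 genes, 9 entered these comparisons, and a gene could enter through 1 class alone. OM-like cells had 3 genes higher than glia-like cells, among them Calca and Ntrk2 (4.22 and 2.52, median 0.94 beside -0.04). HC-like cells had 2 higher, Scn11a and Calca, and 6 lower, Ntrk3 among them (median -2.65 beside -0.06). Over all genes, 12.7%, 0.493% and 29.8% were called at the successive steps with age. Against SGN-like cells the shares were 54.1% for glia-like, 53.9% for OM-like and 56.9% for HC-like cells. They were 19.3% for OM-like against glia-like cells, 8.39% for II-like cells and 1.53% for Ic-like cells at E16.5.

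The genes whose levels over the 59 sums were most like those of each member are given with Pearson's r over 17188 genes, with no claim of shared function. For Runx1 they were Lypd1 (0.87), Ryr3 (0.76), Mgat4c (0.76), Rgma (0.76) and Stk32b (0.74), of which Lypd1 and Mgat4c had served to name Ic-like clusters. For Runx2 they were Batf3, Vstm4, Scarf2, Pole2 and S1pr3 (0.80 to 0.77), and for Runx1t1 Daam1, Rbfox2, Six4, Ebf1 and Rragd (0.83 to 0.79). Cbfb was nearest to Mxra7 (0.79), Fnbp1l, Tmx4, Gpr137c and Pdp1, and Runx3, from its few reads, to Sp140 (0.61), Sectm1b, Sash3, Spata31 and Olfr373.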

How the data were processed

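Single-cell RNA was measured on 12 plates. The authors mapped reads with STAR to mm10 with spike-ins, kept uniquely mapped reads and deposited 1 count per gene and well, as the study's methods and the submitters' processing notes state, and all deposited values were whole counts. A further plate of 384 wells belonged to no sample and was left out. Wells were filtered by the study's limits, and counts were scaled to 1000 per cell and taken as the natural log of the value + 1. Cells were clustered within each stage, E17.5 together with E18.5, on 2000 variable genes and 30 components (30 neighbours, Leiden resolution 1, with leidenalg 0.10.2, igraph 0.11.9, scikit-learn 1.9.0 and Python 3.11.15). The members and the listed genes were left out of the features. Classes and comparisons still rest on the same cells. No doublet caller was run, since cells had been sorted singly into wells, and leaving out the deepest 5% of cells stands in for it. Broad classes and SGN classes were named from markers by a rule that was revised after the cluster tables were seen and before any test. The members and lists were chosen with earlier results of these data known.

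Counts were summed per plate and class where at least 5 cells were present (3 for HC-like cells) and tested with edgeR 4.0.16 in R 4.3.3 (TMM factors, filterByExpr, glmQLFit and glmQLFTest with default settings, Benjamini-Hochberg adjustment over all genes tested, threshold 0.05), and SEs were derived from the fold change and its F statistic. Correlations used log2 CPM with a prior count of 2. Fits for stages used 1 sum per plate, and fits between classes had stage as a covariate. Genes named were the members, their 5 most alike genes, and the called genes of each list, up to 3 in each direction. Fits were tested on simulated data before use. DESeq2 1.42.0, RLE scaling, no low-count filter, resolution 2, cells with fewer glial reads, removal of 1364 glial genes from the clustering features, 1 plate series, left-out plates and a plate block were the alternatives. The plate block pairs classes that come from the same pooled animals, and same-plate deviations had a median correlation of 0.0125 for the broad classes, 0.0786 for the late SGN classes (10 of 24 pairs over 0.1) and 0.188 for the SGN classes of E16.5 (3 of 3 pairs). Shares of cells were compared after thinning to 100000 reads, which left out 155 shallower cells. The values of some listed genes, and the marker of a subset of cells left out in 1 alternative, are not reported here.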

Additional observations from a re-analysis of the deposited data

Results flagged for a closer look

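The change of Runx1 from E18.5 to P3 differed between Ia-like and Ic-like neurons, by log2 -4.16 ± 0.78 in the test of the difference itself (adjusted p = 0.0327 by edgeR's quasi-likelihood test). Ia-like cells went from 96.3 and 96.7 CPM to 6.32 and 0.871, and Ic-like cells from 369.9 and 344 to 285 and 267. Without E18.5 replicate 1 or 2 the adjusted p was 0.343 and 0.434. Ia-like cells held 2043 to 2631 CPM of glial markers at E18.5 and 3269 to 4390 at P3, and the part of these reads was not tested. Classes of neurons were named within each stage, and the transient Ia/Ib population that the study reported at E18.5 had no class here. Whether a name covers the same neurons at both stages was not tested either.

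The 94 unnamed cells of E14.5 entered no comparison and held more of several members than a count of 0 allows, 0.206 CPM for the 52 cells of replicate 2 and 0.300 CPM for the 42 of replicate 1, for counting error only. Before TMM scaling, Runx1 stood at 157.6 CPM in replicate 2 and 158.1 in replicate 1, Runx2 at 28.9 and 33.2, Runx1t1 at 62.0 and 80.8, and Cbfb at 104.2 and 131.0. Runx3 came to 3.44 CPM in replicate 2, from 50 reads of a single cell, and to 0 in replicate 1. These cells combined cartilage markers at 9682 to 13553 CPM with OM markers at 1824 to 2216 CPM and 142.7 to 222 CPM of SGN markers.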

How the results depend on the processing

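Of 1430 alternatives for 89 results of single members, 1361 kept direction and side of the threshold, 30 lost and 39 gained a call, and 0 turned direction for a called value. Beyond these, 119 of 337 gene counts moved by over 1.5 times, and 87 of 565 shares of cells moved beyond their interval. The cause of these changes was not tested.

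DESeq2 called more genes, 3490 for E16.5 against E14.5 in SGN-like cells, 816 for E17.5/E18.5 against E16.5, 1436 and 1645 for the same early step in glia-like and OM-like cells, 722 and 791 for their differences from SGN-like cells, 924 for Ic-like against Ia-like, 375 for Ib-like against Ia-like, 174 for Ic-like against Ib-like and 764 for Ic-like cells at E16.5. It called Runx1 (0.36), Runx1t1 (-0.84) and Cbfb (-0.69) at E17.5/E18.5, Runx1 between OM-like and glia-like cells (0.87), Runx1 (1.61) and Runx1t1 (3.65) for the glia-like stage step and Runx1t1 for its difference from SGN-like cells (4.75), Runx1 between Ib-like and Ia-like cells (3.31), and Runx1t1 (0.62) and Cbfb (-0.46) at E16.5.

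Without the low-count filter the counts were 125 at E17.5/E18.5, 20 for the glia-like difference and 57 for Ic-like against Ib-like cells, and Runx1t1 in glia-like cells (3.64) and Runx1 between Ib-like and Ia-like cells (3.29) passed. RLE scaling passed Runx1 between OM-like and glia-like cells (0.87). At resolution 2, Ib-like against Ia-like cells gave 211 genes with Runx1 (3.80) and Runx1t1 (1.46), Ic-like against Ib-like 55 with Runx1t1 (1.19), and II-like 2113. With the SGN-like cells of fewer glial reads, the counts were 125 at E17.5/E18.5 with Runx1t1 (-0.95), 10 for the glia-like step, 35 and 46 for the differences, 219 for II-like and 75 at E16.5, Runx1t1 missed the threshold between Ic-like and Ia-like (2.504) and in II-like cells (-2.26), and Runx1 passed between Ib-like and Ia-like cells (2.84) and, in Ic-like cells at P3, at -0.78.

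Within series SS2_20, 429 genes and not Runx1 (0.69) passed from E14.5 to E16.5, Runx1t1 (-1.21) passed in OM-like against SGN-like and Runx1 (1.25) in OM-like against glia-like cells, and the glia-like step and the differences gave 25, 62 and 68. With glial genes out of the features, Runx1t1 between OM-like and glia-like cells missed (1.79), and the counts were 7, 2, 7 and 7 for the early steps and differences, 64 for Ib-like against Ia-like and 0 for Ic-like against Ib-like cells. Without the deepest 5% of cells the OM-like step gave 14 and the differences 18 and 10. With the plate block, Runx1 between Ic-like and Ia-like cells was 3.12 (adjusted p = 0.0691), Ib-like against Ia-like gave 234 genes, and no other member call between classes changed. No paired analysis was possible because each plate has 1 stage, for the stage comparisons. Alternatives chosen after seeing the data were stricter naming (glia-like step 452 genes, Runx1t1 3.64, and difference 89 genes, Runx1t1 4.63), immune cells left out (Runx1t1 4.92 and 5.92) and a subset of mainly E14.5 cells left out (Runx1 0.24 at E16.5, 49 genes at E17.5/E18.5).

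Leaving out 1 plate at a time gave 1216 to 2749 genes and Runx1 0.42 to 0.59 for E16.5 against E14.5, 3 to 834 genes, Runx1t1 -1.13 to -0.70 and Cbfb -0.83 to -0.63 for E17.5/E18.5, and 2851 to 5446 genes for P3. It gave Runx1 0.62 to 1.05 for OM-like against glia-like cells, 0 to 2485 genes, Runx1 1.27 to 2.09 and Runx1t1 2.95 to 5.12 for the glia-like step, 1 to 3147 genes and Runx1 0.86 to 1.27 for the OM-like step, and 0 to 1294 genes, Runx1t1 3.96 to 6.15, and 0 to 1465 genes for the differences. Among classes it gave 225 to 565 genes, Runx1 2.58 to 3.85 and Runx1t1 2.44 to 2.77 for Ic-like against Ia-like, 33 to 230 for Ib-like against Ia-like, 0 to 40 for Ic-like against Ib-like, 472 to 1738, Runx1 -3.93 to -2.91 and Runx1t1 -2.06 to -1.41 for II-like, 1 to 1720, Runx1 1.49 to 1.93, Runx1t1 0.53 to 0.69 and Cbfb -0.55 to -0.33 at E16.5, and Runx1 -6.34 to -3.59 for Ia-like minus Ic-like. A class left with 1 plate at a stage is assumed to vary like the others. Hair cells could not be left out plate by plate, with no residual freedom. Depth limits Runx3 and, in neurons, Runx2, whose counts were near 0.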
